A study of Mus musculus with 14 samples.

Results

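The clustered protocadherins are cadherin-like adhesion proteins of the cell surface, encoded by 3 gene arrays that lie one after another on a single mouse chromosome. They were examined here in RNA sequencing of lung tumor nodules from C57BL/6 mice that carry a HER2 exon 20 YVMA insertion. Members were the rows of the count table whose symbol begins with Pcdha, with Pcdhb and a digit, or with Pcdhga, Pcdhgb or Pcdhgc, which gave 57 of 55291 symbols: 13 in the alpha, 22 in the beta and 22 in the gamma cluster. The family was chosen by measured values: Pcdhgb6 and Pcdhga10 had 0 counts in vehicle. Every value set against vehicle is therefore a description without a test, and tests were made only among the other 4 groups.

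Total RNA of snap-frozen nodules gave 14 libraries. All mice, vehicle included, shared the genotype and the strain. The vehicle group had 2 libraries, and 3 libraries each came from nodules after long-term treatment with mobocertinib (TAK-788), an inhibitor of the EGFR and HER2 kinases, with T-DM1, an antibody to HER2 that carries a cytotoxic drug, or with the combination. The last 3 libraries came from nodules with acquired resistance to mobocertinib given alone, called resistant below. The sources used here do not give the promoter that drives the HER2 allele, the ages, the doses or the durations. Replicate numbers only name a library, and the labels do not say that each library is a separate animal, so p-values measure the spread between these samples. The replicate libraries of a group differed well beyond counting noise and each counted as 1 sample.

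In this gene family each alpha and gamma transcript joins its own large variable exon, which encodes the extracellular cadherin repeats and the membrane span, to constant exons that all members of that cluster share and that encode the cytoplasmic tail. Beta members have no constant exons. In neurons, a chosen set of promoters is used in each cell under the control of CTCF, cohesin and DNA methylation, and matching sets on facing membranes bind each other and allow a cell to recognise its own branches. The C-type members (Pcdhac1, Pcdhac2, Pcdhgc3, Pcdhgc4 and Pcdhgc5) stand at the ends of the alpha and gamma arrays and are used more steadily than the others, and Pcdhgc3 is known to be expressed outside the nervous system too.

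By the annotation GENCODE M21 (mm10), all members lie on the plus strand of chromosome 18. The alpha cluster spans positions 36930184 to 37187661, the beta cluster 37264938 to 37524479 and the gamma cluster 37661793 to 37841873. Their variable and constant stretches are exons of these genes, and 37 members share exon bases with another gene on the same strand. Levels per kb below therefore use only the exon bases that no other gene of that strand shares, for 56 members. They assume that reads in shared exons were not counted, which the sources used here do not state. Pcdha11 has no such length because its symbol stands for more than 1 gene. Genes on the opposite strand overlap 12 members. The overlap reaches 2613 bases of Pcdhga10, shared with Gm26672, and 1559 bases of Pcdhgc3, shared with BC037039. Those 2613 bases are all the bases used for the level per kb of Pcdhga10. Gm26672 itself had 0 to 12 counts per library and BC037039 0 to 45. The sources used here do not say whether counting used strand, so reads of such pairs cannot be told apart. Pcdhgb8 is annotated as a polymorphic pseudogene.

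The nodules held the epithelial markers of lung adenocarcinoma in every library: Nkx2-1, the lung epithelial transcription factor, was at 75.2 CPM or more (read counts scaled to library size with TMM factors), and Epcam, an epithelial adhesion protein, at 168 CPM or more. Library totals were 19344015 to 31287261 counts. Neuron and glia markers, chosen because the clusters are known best from those cells, summed to 18.6 to 46.7 CPM over 13 genes, of which 7 passed the expression filter. Among them the neuronal genes Snap25 and Rbfox3 did not exceed 0.467 and 0.913 CPM. Nearly all of the sum thus came from other genes of the list, and these picked genes are no measure of it. In these bulk samples, fewer cells of a type and less RNA per cell cannot be told apart.

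The 12 libraries outside the vehicle group held protocadherin RNA mainly from the gamma cluster. Gamma members made up 60.5% (resistant 1) to 78.5% (resistant 3) of the family's counts, beta members 21.0% to 38.5% and alpha members at most 1.59%. These shares depend on how reads in shared exons were counted, which is not known. Each alpha member shares 2860 to 5274 exon bases, each gamma member 2116 to 3157 and each beta member at most 455. All 57 members together had 631 counts (mobocertinib 1) to 3078 counts (resistant 2) in a library, or 0.00310% to 0.0135% of it. A count in all 12 of these libraries was found for 18 gamma, 17 beta and 0 alpha members. Alpha RNA was near the limit of detection at this depth, and beta and gamma members were detected broadly but at low counts.

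**Figure D1:**
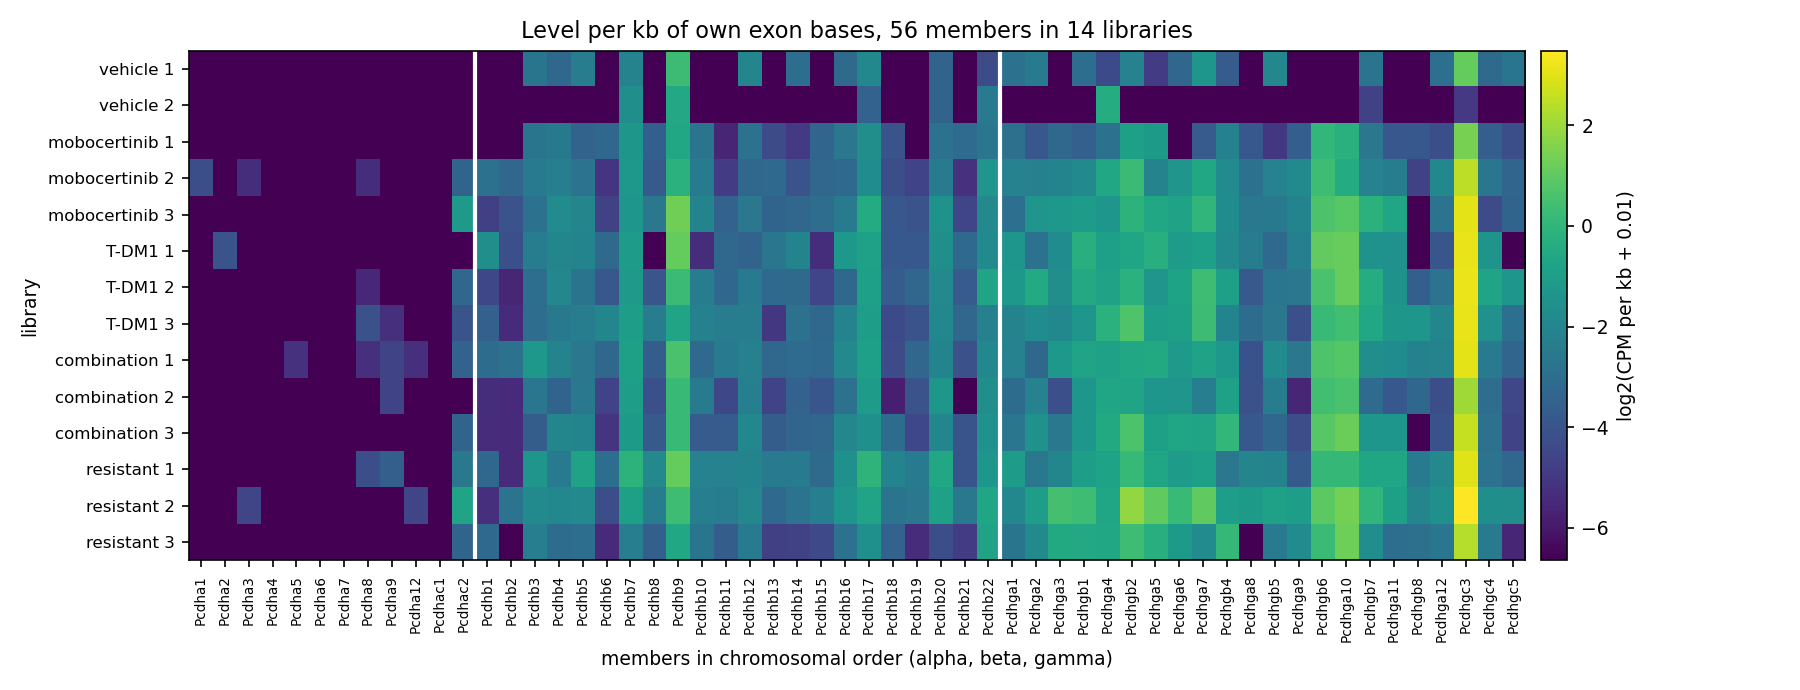
Level of 56 members in each of 14 libraries, as log2 of CPM per kb of own exon bases plus 0.01, with members in chromosomal order and white lines between the clusters. Pcdhgc3 is the brightest column, alpha members other than Pcdhac2 stay near the bottom of the scale, and the vehicle rows are the darkest.

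In the alpha cluster, 4 members (Pcdha4, Pcdha6, Pcdha7 and Pcdhac1) had 0 counts in all 14 libraries, and only Pcdhac2 passed the expression filter. Pcdhac2, a C-type member, had 0, 7 and 37 counts in the mobocertinib libraries, 0, 9 and 4 under T-DM1, 6, 0 and 7 under the combination, and 13, 43 and 5 in the resistant group. Its highest values, 1.32 CPM in mobocertinib 3 and 1.78 CPM in resistant 2, stood in different groups, and every group overlapped every other. Pcdha9 and Pcdha8, next in level per kb, never exceeded 5 and 3 counts. Vehicle had 0 alpha counts in both libraries.

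The beta cluster was led by Pcdhb9, Pcdhb17 and Pcdhb7, all adhesion genes with their own promoter and a single coding exon. Over the 12 libraries Pcdhb9 averaged 1.30 CPM per kb, Pcdhb17 0.505 and Pcdhb7 0.473. Pcdhb9 had 39, 72 and 208 counts under mobocertinib, 154, 117 and 46 under T-DM1, 111, 86 and 95 under the combination, and 175, 93 and 39 in the resistant group. The ranges of all 4 groups overlapped. Pcdhb17 ranged from 29 to 120 counts and Pcdhb7 from 13 to 88 counts in the same libraries, both lowest in a mobocertinib or resistant library and highest in resistant 1. At the other end, Pcdhb2 averaged 0.0429 CPM per kb.

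Which beta member came first varied. Pcdhb9 was first by counts in 9 of 12 libraries, Pcdhb22 in 2 and Pcdhb17 in 1. Pcdhb22 took 6.98% of beta counts in mobocertinib 3 (Wilson 95% interval 5.25% to 9.21%) and 26.4% in resistant 3 (21.3% to 32.2%). Pcdhb9 took 10.6% in T-DM1 3 (8.08% to 13.9%) and 32.2% in mobocertinib 3 (28.8% to 36.0%). For 19 of 22 beta members the intervals of the lowest and the highest library were apart, although these were picked as the extremes of 12. The reads carry no molecular identifiers, so such intervals cover counting error only.

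In the gamma cluster, Pcdhgc3 was first in 12 of 12 libraries. It averaged 7.15 ± 2.48 CPM per kb (SD over 12 libraries), against 1.71 ± 0.613 for the A-type member Pcdhga10, 1.44 ± 0.339 for the B-type member Pcdhgb6 and 1.20 for Pcdhgb2. Pcdhgc3 had 178, 507 and 802 counts under mobocertinib, 706, 1002 and 759 under T-DM1, 695, 348 and 550 under the combination, and 725, 906 and 333 in the resistant group. The single lowest value was mobocertinib 1, and the groups overlapped apart from the T-DM1 libraries, which by CPM (29.8 or more) lay above all mobocertinib and combination libraries.

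The other C-type gamma members were low. Pcdhgc4, a member known to be needed for neuron survival in mice, had 5, 14 and 4 counts under mobocertinib, 30, 67 and 30 under T-DM1, 14, 10 and 12 under the combination, and 13, 27 and 12 in the resistant group. By CPM each T-DM1 library (1.18 to 2.07) lay above each of the other 9 (0.142 to 1.12). Pcdhgc5 had 4, 11 and 11, then 0, 58 and 14, then 10, 4 and 4, and 12, 34 and 1 counts in the same order of groups. By CPM T-DM1 2 (1.80) and resistant 2 (1.41) were highest, and the rest of these libraries were at 0.550 or less.

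Pcdhgc3 took 35.7% (32.7% to 38.8%, resistant 3) to 51.1% (48.5% to 53.7%, T-DM1 1) of gamma counts. The 12 A-type members together took 26.2% to 33.9% and the 7 B-type members a median of 22.5% and at most 29.3%. Single members varied more: Pcdhgb4, a B-type member, took 1.05% in resistant 1 and 7.82% in resistant 3. For 22 of 22 gamma members the intervals of the lowest and highest library were apart. Position along an array gave little order in level per kb, with a Spearman rho of 0.069 over 22 beta members and -0.25 over 22 gamma members. These points share libraries and were given no p.

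**Figure D2:**
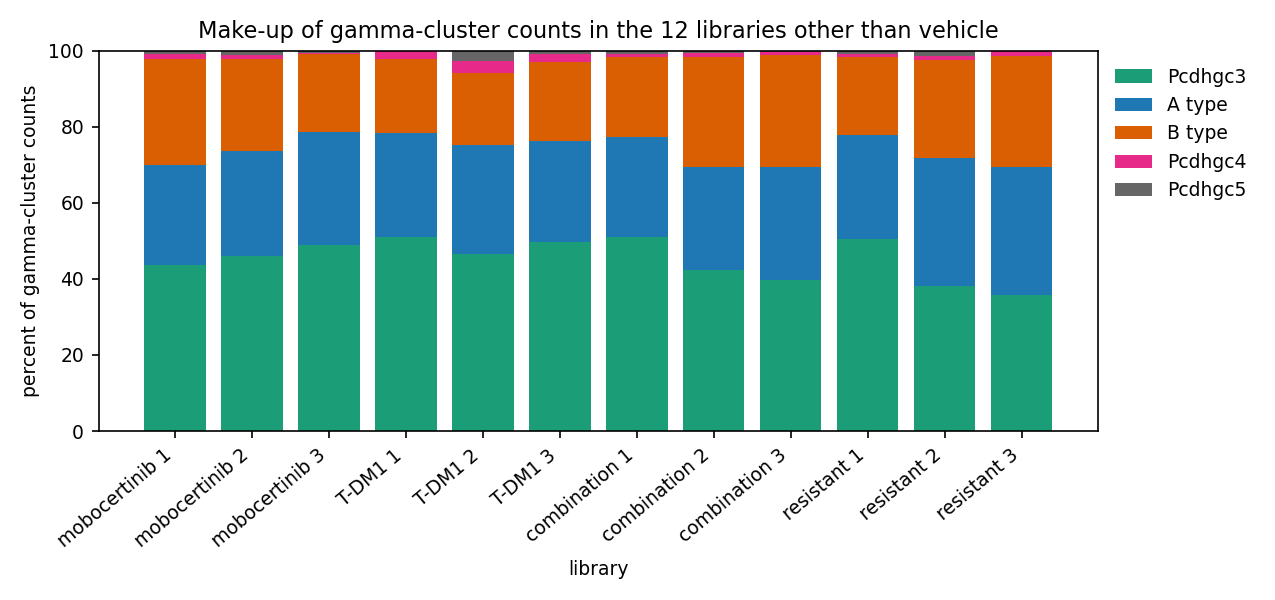
Share of gamma-cluster counts (percent) held by Pcdhgc3, the A-type, the B-type, Pcdhgc4 and Pcdhgc5 in the 12 libraries outside vehicle. Pcdhgc3 takes the largest single part in each bar, from 35.7% to 51.1%.

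Vehicle libraries held few protocadherin counts. Vehicle 1 had 398 counts over 26 members and vehicle 2 had 84 counts over 8, and 31 of 57 members (13 alpha, 11 beta and 7 gamma) had 0 counts in both. The pair did not look alike: Pcdhgc3 had 120 counts in vehicle 1 and 1 in vehicle 2, while Pcdhb9 had 62 and 28. In vehicle 2, 16 of 18 gamma counts were of Pcdhga4, an A-type member.

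Pcdhgb6, with 0 counts in both vehicle libraries, had 53, 86 and 112 counts under mobocertinib, 123, 123 and 73 under T-DM1, 102, 85 and 126 under the combination, and 75, 116 and 59 in the resistant group. Pooled over a group, this is at least 33.5-, 39.4-, 40.7- and 35.3-fold higher than the vehicle floor, which is 3 counts over the group or 0.0996 CPM. Pcdhga10, also at 0 in vehicle, had 45, 53 and 131, then 135, 181 and 88, then 112, 97 and 162, and 76, 160 and 119 counts in that order of groups, at least 30.5-, 49.9-, 48.3- and 50.2-fold higher. These genes chose the family, so their folds support nothing. Pcdhgc3, the most abundant member, was 4.92-, 7.55-, 5.14- and 6.88-fold higher by pooled CPM, and Pcdhb9, the leading beta member, only 1.42-, 1.30-, 1.27- and 1.45-fold.

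Summed over a cluster, gamma was 13.8 and 1.34 CPM in the vehicle libraries. It was 20.3, 40.6 and 58.4 CPM under mobocertinib, 58.6, 66.5 and 60.0 under T-DM1, 55.3, 32.4 and 51.0 under the combination, and 52.2, 98.8 and 48.0 in the resistant group. Both vehicle libraries lay below all 12 others. The log2 ratio of group means to vehicle was 2.39, 3.03, 2.61 and 3.13. Without vehicle 1 it was 4.89 to 5.63, and without vehicle 2 it was 1.53 to 2.26.

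Beta was 10.1 and 4.90 CPM in vehicle, against 11.1 to 22.9 under mobocertinib, 17.0 to 23.7 under T-DM1, 15.6 to 20.9 under the combination and 12.9 to 33.2 in the resistant group, log2 ratios of 1.10, 1.41, 1.24 and 1.70. The nearest values, 10.1 in vehicle 1 and 11.1 in mobocertinib 1, almost met. Alpha, at 0 in vehicle, averaged 0.598, 0.250, 0.275 and 1.06 CPM, means that were 6.01-, 2.51-, 2.76- and 10.6-fold the floor. Single libraries ranged from 0 to 1.32, 0.127 to 0.314, 0.0788 to 0.487 and 0.309 to 1.99 CPM in that order of groups. Mobocertinib 1, at 0, thus equalled vehicle, and combination 2 lay below the floor of 0.0996 CPM.

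**Figure D3:**
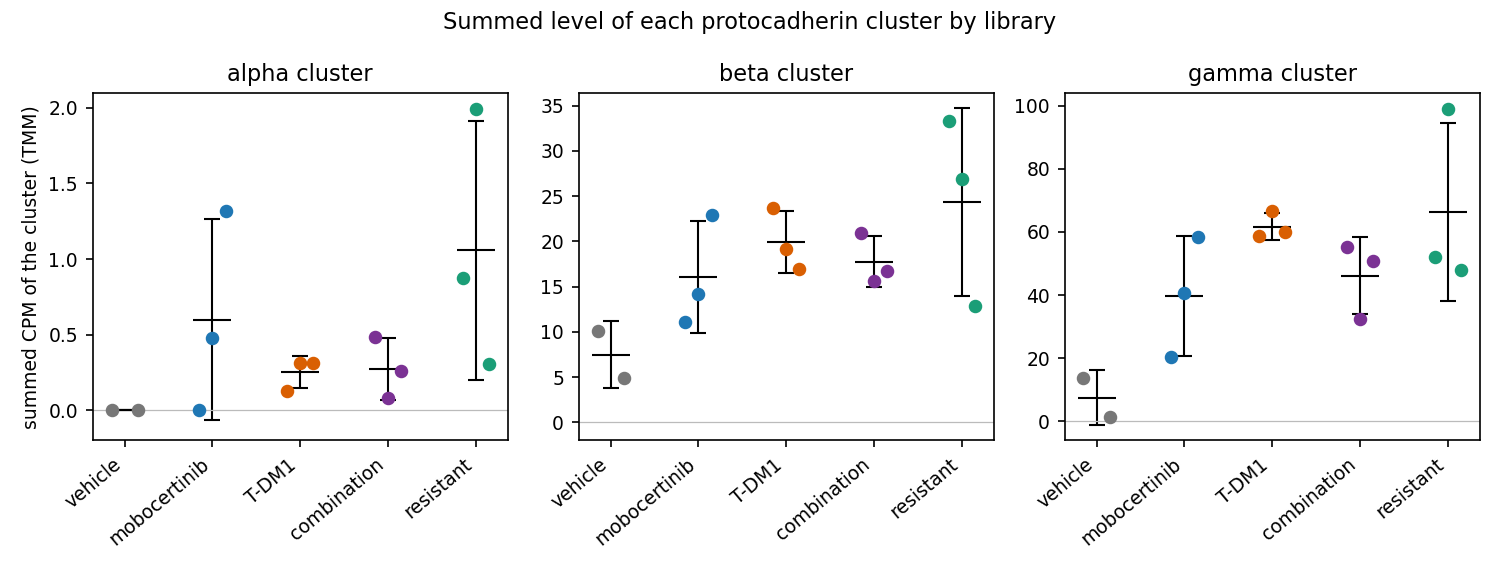
Summed CPM of the alpha, beta and gamma clusters in each library (points), with the group mean and SD (bars, n = 2 for vehicle and 3 for each other group). Gamma is 1.34 and 13.8 in vehicle and 20.3 to 98.8 elsewhere, and the spread within groups is wide in the mobocertinib and resistant groups.

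Of the 42 members that passed the expression filter (1 alpha, 19 beta and 22 gamma), 15 had both vehicle libraries below all 12 others and 0 had both above. The same held for 20.4% of all 17933 genes tested, and nothing is read from the count because vehicle chose the family. In those libraries the share depended on gene length. It was 38.3% of protein-coding genes with over 5000 exon bases, 23.9% of those with 4000 to 6000 and 3.48% of those under 1000. Gamma members have 4615 to 7627 exon bases and beta members 2588 to 8695. The share was 40.9% of the 22 gamma and 31.6% of the 19 beta members tested. The median log2 ratio of the others to vehicle, with 0.1 CPM added, was 2.34 for gamma and 1.64 for beta members. It was 0.77, 0.35 and -1.64 for those length classes in that order, and 0.18 for all genes tested. Vehicle chose the family, so these values test nothing. The part of transcript length in the protocadherin values was not tested. Markers of macrophages and other myeloid cells summed to 23988 and 24397 CPM in vehicle and to 1053 to 14493 elsewhere, and endothelial markers to 359 to 465 against 681 to 1453; their part was not tested either. Lung adenocarcinoma and alveolar type 2 markers summed to 144376 and 213041 CPM in vehicle and to 11433 to 81881 elsewhere, without overlap. The TMM factors that scale every CPM were 0.68 and 0.54 in vehicle and 0.99 to 1.23 elsewhere. The part of these in the protocadherin values was not tested.

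Genes beside and between the arrays gave another level. Taf7, a transcription factor subunit whose gene lies between the beta and gamma arrays, was at 5.70 and 11.7 CPM in vehicle and 5.34 to 10.6 CPM elsewhere, so vehicle overlapped the rest. Slc25a2, a mitochondrial carrier gene in the same interval, never exceeded 0.360 CPM. Summed over the 19 listed neighbours, vehicle had 1093 and 1996 CPM and the others 889 to 1203. Non-clustered protocadherins, which lie outside the arrays, summed to 36.0 and 39.1 CPM in vehicle and 90.2 to 162 elsewhere. Among them Pcdh1, a protocadherin of airway epithelium, was at 27.8 and 28.8 CPM in vehicle and 48.8 to 117 elsewhere. Pcdh1 thus made up most of the vehicle sum. The lists overlap, since Pcdh1 and Pcdh12 are also among the 19 listed neighbours. A lower vehicle level was not particular to protocadherins. Cadherins, FAT and Dachsous genes summed to 298 and 201 CPM in vehicle and to 819 to 1632 elsewhere. Chromatin factors of the arrays summed to 689 and 460 against 971 to 1590. Partners and processing genes of protocadherins summed to 2167 and 2284 against 2498 to 3002.

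The authors' TPM table (transcript abundance corrected for length and library size) held a gamma row with another pattern. Its symbol is Pcdhga8, but its Ensembl identifier ENSMUSG00000023036 belongs to Pcdhgc4 in GENCODE M21. It had 17.4 and 10.4 TPM in vehicle and 32.3 to 50.8 elsewhere, 2.83-fold by means. The other 22 gamma rows summed to 2.52 and 0.19 TPM in vehicle and 9.64 to 49.8 elsewhere, 21.7-fold. Pcdhgc3 alone, the abundant C-type member, was at 1.34 and 0.02 TPM in vehicle and at 4.11 or more elsewhere.

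The row thus held 87.4% and 98.2% of gamma TPM in vehicle and 39.4% to 77.2% elsewhere. It did not follow the counts of Pcdhgc4, which were 0 to 1.65 per TPM of this row, whereas Pcdhgc3 had 36.1 to 89.6 counts per TPM. The median gene with at least 1 TPM in 2 libraries was 3.51-fold higher outside vehicle (ratio of means with 0.01 added). The sources used here do not say which transcripts entered the row.

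**Figure D4:**
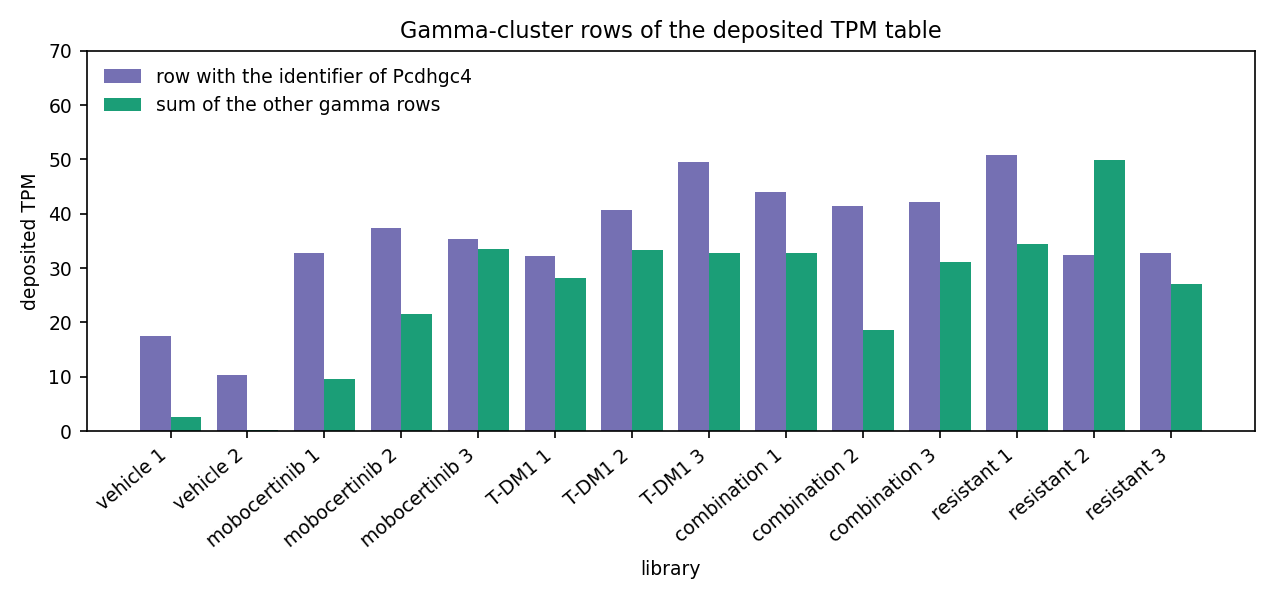
Deposited TPM by library of the gamma row that carries the identifier of Pcdhgc4 and of the sum of the other 22 gamma rows. In vehicle the row is at 17.4 and 10.4 TPM while the others sum to 2.52 and 0.19; outside vehicle both are at 9.64 or more.

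Among the 4 groups without vehicle, the edgeR quasi-likelihood test with Benjamini-Hochberg adjustment called 0 of 42 members at an adjusted p below 0.05 in each of 6 comparisons. Over all genes it called 1 gene (0.00558%) for resistant against mobocertinib, 0 (0%) for combination against mobocertinib, 0 (0%) for combination against T-DM1, 5 (0.0279%) for T-DM1 against mobocertinib, 1 (0.00558%) for resistant against combination and 0 (0%) for resistant against T-DM1. Members with an unadjusted p below 0.05 numbered 1, 0, 0, 1, 1 and 0 in that order, against 7.77%, 1.46%, 5.1%, 9.56%, 8.3% and 13.1% of all genes. DESeq2 gave an adjusted p to 45, 53, 36, 40, 44 and 40 members and called 0, 0, 0, 1, 0 and 0 of them, beside 0.143%, 0.0033%, 0.424%, 2.27%, 0.25% and 2.65% of all genes with an adjusted p. Limma on log2(TPM + 1) called 0 of the 13 members it tested in each comparison, beside 0%, 0%, 0%, 0.0761%, 0% and 0.0317% of 15774 genes.

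The single member called by DESeq2 was Pcdhgc4 in T-DM1 against mobocertinib, at a log2 fold change of 2.32 and an adjusted p of 0.0430. That is 1 of 40 members beside 392 of 17301 genes (2.27%), a share near the background. In edgeR its log2 fold change was 2.30 ± 0.82 (SE), with an adjusted p of 0.360, and every T-DM1 library lay above every mobocertinib library. For combination against T-DM1 its log2 fold change was -1.68 ± 0.80, with an edgeR adjusted p of 0.959. Its counts outside vehicle were 4 to 67.

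Other members with an unadjusted edgeR p below 0.05 were named after their values were seen. Pcdhb11, a beta member, had 1, 3 and 10 counts under mobocertinib and 26, 19 and 6 in the resistant group, log2 fold change 1.93 ± 0.87 with an edgeR adjusted p of 0.622. The resistant 3 library lay within the mobocertinib range. Pcdhga3, an A-type member, had 26, 3 and 11 counts under the combination and 17, 88 and 35 in the resistant group, log2 fold change 1.93 ± 0.87 with an edgeR adjusted p of 0.596, and its groups overlapped.

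No leading member passed the test in these comparisons. For resistant against mobocertinib the log2 fold change was 0.53 ± 0.76 for Pcdhgc3, 0.81 ± 0.49 for Pcdhga10, 0.11 ± 0.42 for Pcdhgb6, 0.03 ± 0.61 for Pcdhb9, 0.46 ± 0.56 for Pcdhb17 and 0.46 ± 0.53 for Pcdhb7. For T-DM1 against mobocertinib it was 0.69 ± 0.76 for Pcdhgc3, 0.74 ± 0.49 for Pcdhga10 and -0.01 ± 0.61 for Pcdhb9. Pcdhac2, the alpha member tested, had the largest errors, as in 2.45 ± 1.48 for resistant against T-DM1. None of these passed the test, which does not show that the levels were alike.

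The signs of the fitted differences were counted as well. Of 42 members, 41 had a positive log2 fold change for resistant against mobocertinib, with a median of 0.86 against 0.07 for all genes. The counts and medians were 38 and 0.76 against the combination (all genes 0.07), and 30 and 0.28 against T-DM1 (all genes 0.03). For T-DM1 against mobocertinib they were 35 and 0.32 (all genes 0.01), for combination against mobocertinib 26 and 0.13 (all genes -0.01) and for combination against T-DM1 8 and -0.28 (all genes -0.04). Positive signs over all genes tested made up 55.0%, 54.8%, 51.9%, 50.6%, 47.7% and 46.2% in that order of comparisons. Members share libraries, and gamma members also share constant exons, so members are not independent. These comparisons also share groups.

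Single libraries moved those medians. Resistant 2 was the highest of the 12 libraries in 16 of 42 members and mobocertinib 1 the lowest, ties included, in 16. With each library left out in turn, the median for resistant against mobocertinib was 0.55 (without resistant 2, 35 members positive) to 1.18 (without mobocertinib 3, 42 positive). Against the combination it was 0.38 (without resistant 2) to 1.02 (without resistant 3), and against T-DM1 0.13 (without resistant 2) to 0.58 (without resistant 3). For T-DM1 against mobocertinib it was 0.15 (without mobocertinib 1) to 0.76 (without mobocertinib 3). The sign turned for combination against mobocertinib, from -0.03 without mobocertinib 1 to 0.49 without mobocertinib 3. For combination against T-DM1 the range was -0.44 (without combination 1) to -0.10 (without combination 2). Resistant 2 also had the highest myeloid marker sum of the 12, 14493 CPM, while resistant 1 had the highest fibroblast and smooth muscle marker sums, 4041 and 1988 CPM. Alveolar type 1 markers summed to 1392 to 2603 CPM in the resistant libraries and to 3032 or more in every other library. Their part in the protocadherin values was not tested.

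**Figure D5:**
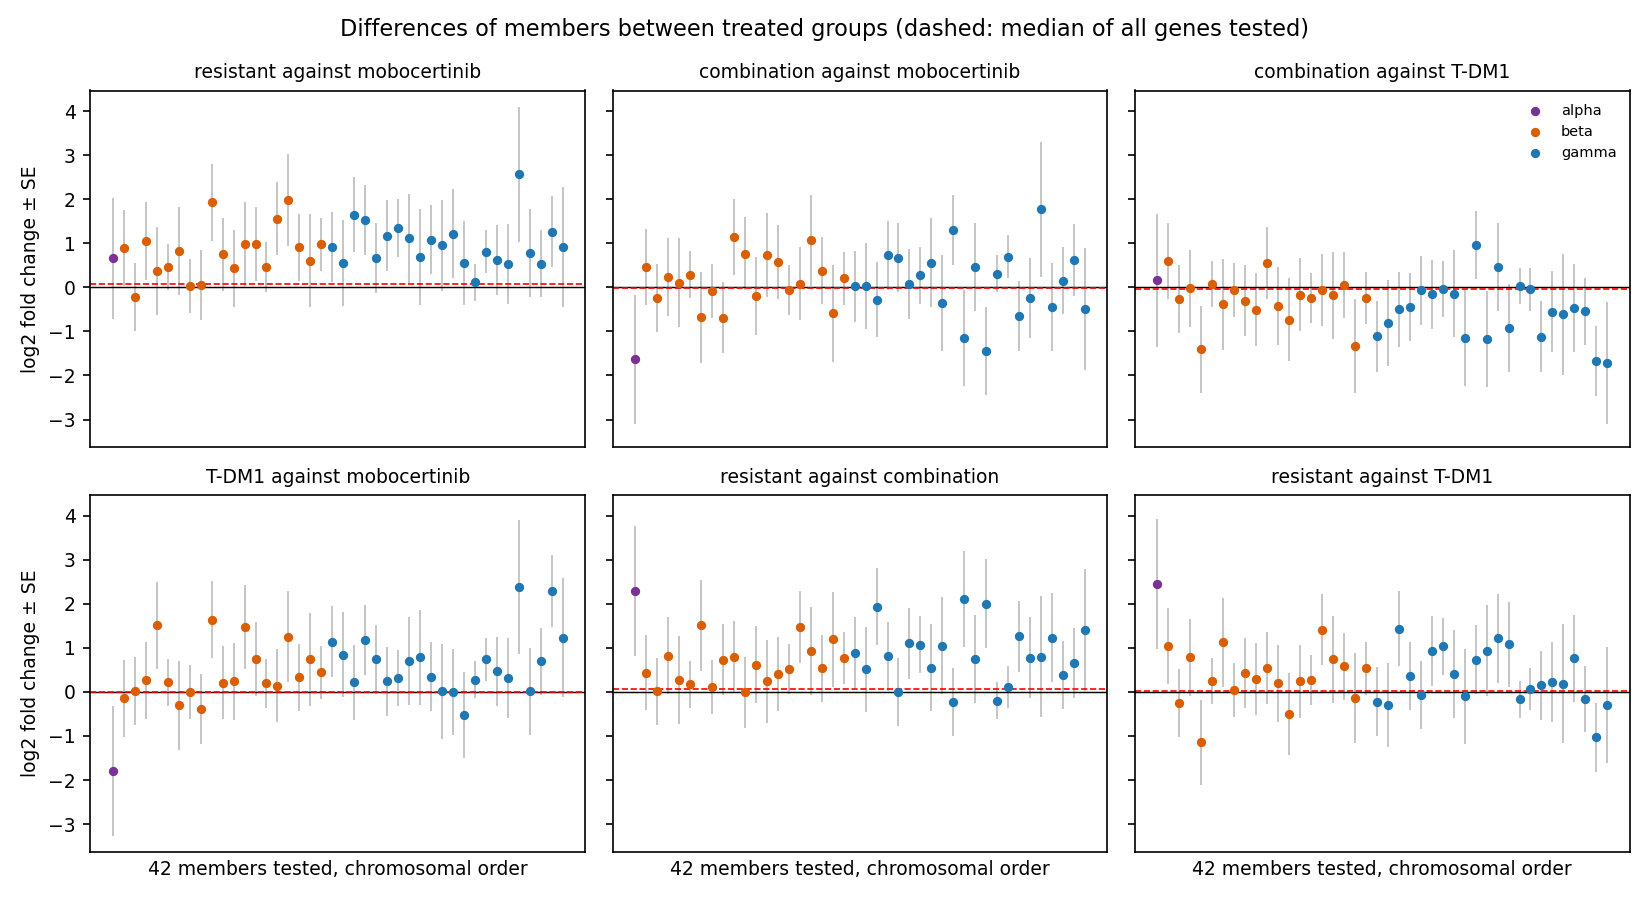
Log2 fold change with SE of the 42 members tested in each of 6 comparisons without vehicle, in chromosomal order and coloured by cluster, with the median of all genes dashed. Most members lie above 0 for resistant against mobocertinib (41 of 42, beside 55.0% of all genes), and 0 passed an edgeR adjusted p of 0.05 in any panel.

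Genes of the same biology were counted from lists chosen for this family: 177 genes, 166 of them tested. In edgeR 0 were called in each of the 6 comparisons, with 20, 4, 7, 14, 20 and 25 at an unadjusted p below 0.05 in the order above. These are 12.05%, 2.41%, 4.22%, 8.43%, 12.05% and 15.1% of the 166, beside 7.77%, 1.46%, 5.1%, 9.56%, 8.3% and 13.1% of all genes. DESeq2 gave an adjusted p to 165, 174, 161, 162, 163 and 162 list genes and called 0, 0, 0, 2, 1 and 6 of them. Over all genes with an adjusted p it called 28, 1, 71, 392, 46 and 458. These are 0.143%, 0.0033%, 0.424%, 2.27%, 0.25% and 2.65% of those genes. The genes named below had the smallest p of their list and are no measure of it, so each list's median log2 fold change in the same comparison is given beside them. Pcdh20 of the non-clustered protocadherins had 4.70 ± 1.31 for resistant against combination (edgeR adjusted p 0.596, list median 0.55). Dchs2, a Dachsous ligand of FAT cadherins, had 2.71 ± 0.85 for resistant against mobocertinib (edgeR adjusted p 0.622, median of the larger cadherins 0.23).

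Among 21 chromatin factors of the arrays, Stag1, a cohesin subunit, had a log2 fold change of 0.91 ± 0.25 for resistant against T-DM1 (edgeR adjusted p 0.206, list median 0.41), and DESeq2 called it. Among partners of the cytoplasmic tails, Nckap1 of the WAVE actin complex had 0.52 ± 0.23 for resistant against mobocertinib (edgeR adjusted p 0.622, list median 0.13). Of the neighbours, Cd14, a receptor of myeloid cells, had 1.57 ± 0.29 for T-DM1 against mobocertinib (edgeR adjusted p 0.137), and DESeq2 called it, while the median of its list was -0.22.

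From the marker lists, Krt19 of epithelium had -2.21 ± 0.60 and Aqp5 of alveolar type 1 cells -1.99 ± 0.48 for resistant against T-DM1 (edgeR adjusted p 0.202 and 0.161), and DESeq2 called both. The medians of their lists were -0.41 and 0.02. Myh11 of smooth muscle, which DESeq2 called, had 2.95 ± 0.79 and Cd163 of macrophages 3.44 ± 1.13 for resistant against combination (both edgeR adjusted p 0.596), with list medians of 1.94 and 0.42.

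In the same fit Fn1 of fibroblasts had 0.95 ± 0.38 (list median 0.62) and S100b of glia 1.51 ± 0.61 for T-DM1 against mobocertinib, where the neuron and glia median was -0.51. Erg of endothelium had 1.27 ± 0.50 for resistant against T-DM1 (list median 0.32). For combination against T-DM1, Ms4a1 of B cells had -2.85 ± 1.29 (list median -0.98) and Cyp2f2 of club cells 1.42 ± 0.61, where the club and ciliated cell median was -0.91. All 5 had an edgeR adjusted p of 0.318 or more. The sign of Cd14, S100b, Cyp2f2 and Aqp5 was thus opposite to that of their lists.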

How the data were processed

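RNA of 14 lung tumor nodule libraries was analysed from 2 deposited tables. The authors' first table gives whole-number read counts per gene symbol, and the authors' second gives TPM for 47606 genes. The submitters' processing notes name mm10, STAR and RSEM, with no version or role. The annotation and strand setting used in counting are not given in the sources at hand. Members, gene lists and tests were chosen with earlier results of these data known.

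The test of counts was that of edgeR 4.0.16 in R 4.3.3 (TMM factors, filterByExpr by group, robust quasi-likelihood F-test) in 1 fit of 14 libraries and 17933 genes with 5 group means and 9 residual degrees of freedom. A gene was called at an adjusted p (Benjamini-Hochberg) under 0.05, and an SE is the fold change over the square root of F. DESeq2 1.42.0 and limma 3.58.1 (log2(TPM + 1), at least 1 TPM in 2 libraries) were alternatives (DESeq2 leaves the adjusted p of some low genes empty), with RLE factors, other filters, fits on fewer groups and each library left out. The script was tested on simulated data for resistant against mobocertinib. It called 3 of 50 genes changed 2-fold, 24 of 50 at 4-fold, 31 of 50 at 8-fold and 33 of 50 at 16-fold. Many real changes can thus go uncalled. Within groups, 13 library pairs had a chi-square per degree of freedom of 87.9 to 504 (genes with 20 or more counts).

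Named genes were Pcdhgb6 and Pcdhga10, the 3 members per cluster highest per kb over the 14 libraries, the C-type members, called members, 1 gene per list by smallest p where none was called, Taf7 and Slc25a2. Other members and genes named with values were chosen after these were seen. Sequences are not shown. Library totals were 19344015 to 31287261 counts.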

Additional observations from a re-analysis of the deposited data

How the results depend on the processing

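No paired analysis was possible because the labels carry no replicate numbers that the groups share. Members called stayed at 0 in the 6 comparisons under every alternative but DESeq2, which called 1 for T-DM1 against mobocertinib, and leaving out single libraries gave 0 to 0. All-gene calls in the order resistant against mobocertinib, T-DM1 against mobocertinib, resistant against combination and resistant against T-DM1 were 0, 11, 0 and 9 with no filter and 0, 12, 0 and 5 with limma on TPM. DESeq2 gave 28, 392, 46 and 458, with 1 for combination against mobocertinib and 71 for combination against T-DM1. The first 3 were 2, 2 and 2 without vehicle and 0, 0 and 3 with the compared groups alone. With each library left out, the ranges were 0 to 1, 0 to 25 (highest without T-DM1 2), 0 to 0 and 0 to 6 (highest without T-DM1 2), and 0 to 0 for combination against mobocertinib and against T-DM1. The cause was not tested.

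Log2 ratios to vehicle kept their sign in all settings. Beta ratios were 2.72, 2.90, 2.86 and 3.38 by summed TPM (mobocertinib, T-DM1, combination, resistant), and 2.04 for the combination per library total. By TPM the median gene was itself at 1.81 outside vehicle (at least 1 TPM in 2 libraries, ratio of means with 0.01 added). The vehicle TMM factors, 0.68 and 0.54, enter the ratio of every group. A shift per library total is thus not particular to the group named. Alpha under T-DM1 was a bound of 2.14 per library total and had no TPM value, since vehicle was at 0. Gamma under the combination was 4.34 by TPM without the Pcdhgc4-identifier row, an alternative chosen after seeing the data. Taking out this row also changes vehicle, so the shift is not particular to the combination. Outside vehicle the row itself was 2.83-fold higher by means, and the other gamma rows 21.7-fold. With the row kept, the TPM ratio of gamma is therefore lower than the value given here. Leaving out single libraries gave 1.27 to 3.17, 0.17 to 1.65, 0.30 to 1.90 and 2.25 to 3.85 for alpha bounds, 0.67 to 1.71, 0.98 to 2.02, 0.82 to 1.86 and 1.27 to 2.31 for beta, and 1.53 to 4.89, 2.16 to 5.53, 1.74 to 5.11 and 2.26 to 5.63 for gamma, in the same order of groups. For gamma, both ends of these ranges came from leaving out a vehicle library. Members with a few counts per library, such as the alpha genes, are limited by depth.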
